A study of Homo sapiens with 12 samples.

Results

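The comparison set OE33 cells carrying a short hairpin RNA against APE1 (shAPE1) beside OE33 cells carrying a non-targeting hairpin (shCtrl). It used 6 of the 12 RNA-sequencing libraries of the series, 3 in each group, and these 6 were chosen by the hairpin named in the label. OE33 is an established human line of esophageal adenocarcinoma, grown here in RPMI1640 with serum. Every library of both groups came from cells that had first survived repeated acidified bile salts (rABS). That exposure was a bile salt cocktail at 200 µM and pH 5.5, given once a day for 20 minutes over 15 days. The survivors were then stably transduced with one or the other hairpin. The other 6 libraries, 3 of rABS survivors without a vector and 3 of Parental cells that were never exposed, entered the fit and are used below only where stated. The study text describes independent biological replicates, but the labels do not say whether the libraries of a group came from separate transductions. A single APE1 hairpin was used and its sequence is not stated in the labels, which means that what APE1 loss gives and what this hairpin gives cannot be told apart.

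APE1, encoded by APEX1, is the main apurinic/apyrimidinic endonuclease of human cells. In base excision repair a glycosylase removes a damaged base, APE1 cuts the backbone at the site left behind, and a polymerase and a ligase fill and seal the gap. APE1 is also known as Ref-1, because it keeps transcription factors such as AP-1, NF-kB, STAT3 and HIF-1 in a reduced state that can bind DNA. Bile acids in an acidic setting cause oxidative DNA damage in the esophagus, which is the setting that the series models.

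Library totals ran from 15767284 to 19472035 counts in shAPE1 and from 17875433 to 22377679 in shCtrl. Libraries of one group correlated at 0.987 or higher (Pearson, log2 CPM, where CPM is the count scaled to a fixed library total, counts per 1e6), and libraries of different groups at 0.974 to 0.980. The first principal component of the 6 libraries separated the groups and held 51.3% of the variance. The second held 15.2%, and shAPE1 library 2 lay farthest along it. Mitochondrial transcripts made up 3.13 to 4.22% of counts in shAPE1 and 2.62 to 3.30% in shCtrl. Epithelial markers (EPCAM, CDH1, ERBB2 and 4 keratins) summed to 12254 to 13104 CPM in shAPE1 and 13561 to 15016 CPM in shCtrl. Markers of other cell types were low and not all at 0. Endothelial markers summed to 0.402 to 0.688 CPM in shAPE1 and 0.370 to 0.891 CPM in shCtrl. Fibroblast markers summed to 7.13 to 8.21 CPM in shAPE1 and 9.06 to 9.46 CPM in shCtrl, nearly all of it COL1A1 (403 counts in shAPE1 and 579 in shCtrl). The leukocyte gene PTPRC had 7 counts over the 3 shAPE1 libraries and 4 over the 3 shCtrl libraries, and the fibroblast genes COL3A1, LUM and PDGFRA had 0 counts in both groups.

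APEX1 (chromosome 14, 20455191 to 20457772, plus strand, GRCh38) had 4.42, 4.50 and 5.88 CPM in shAPE1 libraries, against 61.96, 56.5 and 60.9 CPM in shCtrl libraries. All 3 shAPE1 values lay far below the lowest shCtrl value. The difference was 12.2-fold (log2 -3.61 ± 0.11, standard error, edgeR quasi-likelihood test, Benjamini-Hochberg adjusted p = 3.75e-22), which left 8.2% of the shCtrl level. These levels rested on 88, 80 and 94 counts in shAPE1 and 1173, 1331 and 1224 counts in shCtrl. An exact permutation test of the 6 values gave p = 0.1, two-sided, the smallest that 20 arrangements allow. APEX2, which encodes the second and much weaker AP endonuclease, had 29.4, 31.6 and 31.3 CPM in shAPE1 libraries, against 32.1, 32.9 and 29.7 CPM in shCtrl libraries. Its groups overlapped and its difference did not pass the test (log2 -0.04 ± 0.09, adjusted p = 0.791).

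Many genes differed between shAPE1 and shCtrl, most of them by little. Of 15805 genes with enough counts to be tested, 2808 (17.8%) rose and 2976 (18.8%) fell in shAPE1 at an adjusted p under 0.05. In 7406 genes (46.9%) all 3 libraries of one group lay above all 3 of the other. The median fold was 1.34 among genes that rose and 1.45 among genes that fell, while 223 genes rose and 476 fell by 2-fold or more. Falls were therefore the larger share of the strong changes. Of 346 genes chosen for naming besides APEX1, 45 took the opposite sign and 32 more lost their call when rABS cells without a vector replaced shCtrl. A change of sign was counted only for genes called against either control. Such values are given beside the results that lead with them. Over all tested genes the median log2 difference was -0.02, and it was 0.00 with RLE scaling and 0.02 with upper-quartile scaling.

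The genes that fell most, after APEX1, included those for a translation factor, receptors, chromatin proteins and enzymes. EIF5A2, an isoform of the translation factor eIF5A, had 4.62, 5.57 and 6.25 CPM in shAPE1 libraries, against 35.4, 30.5 and 31.2 CPM in shCtrl libraries. This was a 5.93-fold difference with well separated groups (log2 -2.57 ± 0.13, adjusted p = 3.63e-16). AXL, a receptor tyrosine kinase of the TAM family, had 22.2, 21.6 and 21.7 CPM in shAPE1 libraries, against 97.7, 106 and 104 CPM in shCtrl libraries, a 4.7-fold difference (adjusted p = 7.04e-20). NT5E, which encodes the adenosine-producing ectoenzyme CD73, had 45.9, 43.9 and 51.8 CPM in shAPE1 libraries, against 197, 177 and 185 CPM in shCtrl libraries. CBX5, which encodes the heterochromatin protein HP1 alpha, had 88.6, 89.8 and 92.6 CPM in shAPE1 libraries, against 379, 338 and 349 CPM in shCtrl libraries. Both were lower by close to the same factor, 3.95-fold for NT5E and 3.93-fold for CBX5. CBFB, the shared partner subunit of RUNX transcription factors, had 18.2, 20.8 and 18 CPM in shAPE1 and 85.6, 75.05 and 73.3 CPM in shCtrl (4.11-fold). MORF4L2, a chromatin-complex subunit, had 24.8, 21.7 and 26.5 CPM in shAPE1 and 122, 103 and 111 CPM in shCtrl (4.62-fold). The remaining falls among the 15 that met the rule (called, 5 CPM or more in a group, no overlap) were EPHB6, LZTFL1, SERTAD4, EPB41L4B, PLEKHA3, ANKRD1, MGAT4A, PHGDH and TMEM158. They lay between 3.52-fold for TMEM158 and 5.44-fold for EPHB6, and all had adjusted p values at or below 1.77e-08. ANKRD1 alone among the 15 lay higher in shAPE1 than in rABS cells without a vector (log2 0.81).

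The genes that rose most encoded chemokines, interferon-induced proteins, a galectin and cornified-envelope proteins. CCL5, a chemokine that attracts T cells, had 7.08, 7.20 and 7.25 CPM in shAPE1 libraries, against 1.00, 0.849 and 0.995 CPM in shCtrl libraries. This was the largest rise under the same rule, at 7.55-fold (log2 2.92 ± 0.27, adjusted p = 1.57e-10). LGALS9, which encodes galectin-9, had 77.6, 91.4 and 73.6 CPM in shAPE1 libraries, against 16.4, 16.5 and 20.8 CPM in shCtrl libraries, a 4.52-fold rise (adjusted p = 2.24e-16). LGALS9 has near-identical copies, and how reads shared with them were counted is not given. CXCL6, a neutrophil chemokine, had 24.7, 23.5 and 24.4 CPM in shAPE1 libraries, against 6.92, 4.33 and 7.27 CPM in shCtrl libraries. SLC2A3, which encodes the glucose transporter GLUT3, had 28.8, 27.9 and 27.1 CPM in shAPE1 libraries, against 7.61, 6.92 and 9.21 CPM in shCtrl libraries. In each of these the lowest shAPE1 library was above the highest shCtrl library. The others of the 15 were NEURL3, ACP3, BNIP5, SPRR2A, OAS2, SPRR1A, TNFRSF9, HYAL1, SGK2, UBD and SLC26A9, from 3.1-fold for SLC26A9 to 6.12-fold for NEURL3. SPRR2A belongs to a cluster of near-identical small proline-rich genes, so its counts are uncertain in the same way.

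**Figure D1:**
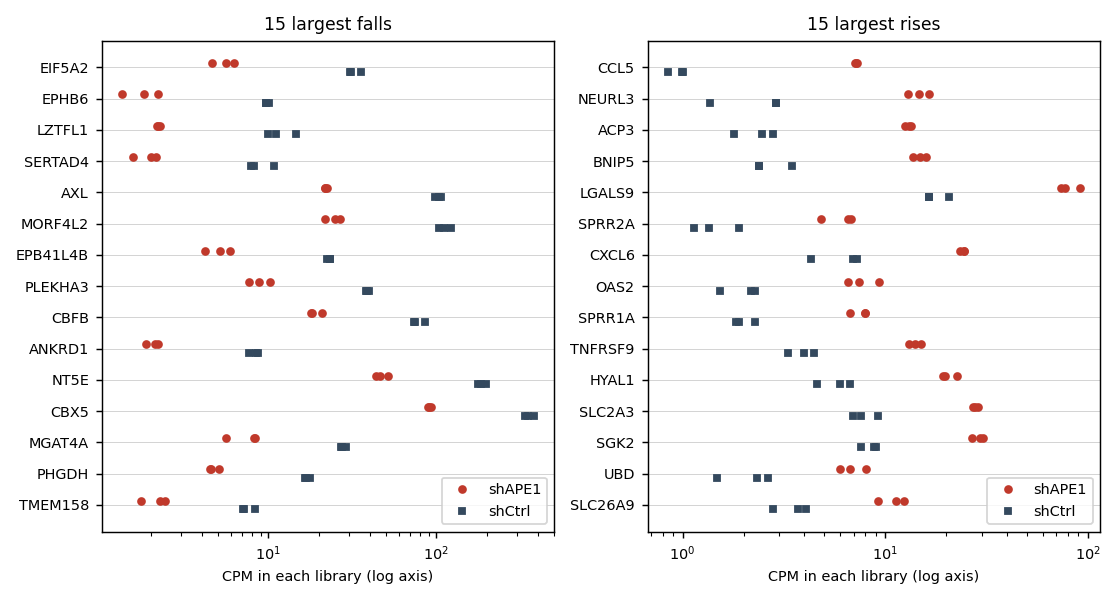
The 15 largest falls (left) and 15 largest rises (right) in shAPE1, with CPM in each library on a log axis, shAPE1 as circles and shCtrl as squares. In every row the circles and squares are apart, with CCL5 at 7.08 to 7.25 CPM in shAPE1 and 0.849 to 1.00 CPM in shCtrl.

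Genes with a particular 7-base string in the 3′ untranslated region (3′ UTR) were lower more often than genes without it. The string, TGCATTC, was known from earlier results of the same libraries, so its shift is a description and no test is given. APEX1 carries it once. Of the 15 largest falls, 6 carry it (EPHB6, LZTFL1, AXL, PLEKHA3, CBX5 and MGAT4A), and of the 14 largest rises with an annotated 3′ UTR none does. Over all tested genes with a 3′ UTR of at least 50 bases, 1384 of 12310 carry it. Sites of 30 bases from APEX1 and 3 of the falls are given 5′ to 3′ on the strand of the transcript, with the string in capitals (GENCODE 29 transcripts, GRCh38).
APEX1 (chr14:20457572-20457601, plus strand): acactcttcagagaaatcTGCATTCtattt
AXL (chr19:41261330-41261359, plus strand): cacctttaggttctttgcTGCATTCtgcct
PLEKHA3 site 1 (chr2:178504539-178504568, plus strand): gttgcctcaaaagatgatTGCATTCtaact
PLEKHA3 site 2 (chr2:178505029-178505058, plus strand): taataaatgcgtggttttTGCATTCaaaca
CBX5 site 1 (chr12:54240627-54240656, minus strand): catagcagttatgtctccTGCATTCttggc
CBX5 site 2 (chr12:54237041-54237070, minus strand): atactgcatactactttgTGCATTCtactt
CBX5 site 3 (chr12:54232147-54232176, minus strand): ttgggattttctgtgtctTGCATTCacaga
Outside the string the sites have little in common. Of the 14 bases before it, 3 to 6 are the same as in APEX1 over these sites.

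Among the 10926 genes without the string 22.6% rose and 19.2% fell, with a median log2 difference of 0.01. With 1 match (1143 genes) 13.6% rose and 39.7% fell (median -0.17). With 2 matches (205 genes) 5.37% rose and 61.5% fell (median -0.41), and with 3 or more (36 genes) 5.56% rose and 61.1% fell (median -0.49). The difference between rABS and Parental cells had medians of 0.01, -0.02, -0.08 and -0.05 in the same 4 classes. Genes with matches have longer 3′ UTRs, with a median of 2966 bases against 881 without. By class of length, under 500 bases 50% of genes with a match and 18% of genes without fell. From 500 to under 1500 bases the shares were 43.4% with and 18.7% without, from there to under 3000 bases 43.1% with and 19.9% without, and above that 43.2% with and 22.5% without. None of the 2545 mature human miRNAs in RefSeq has the complement of the string as its seed. With the hairpin sequence not stated, whether it holds this complement was not tested. Replication genes fell with or without it: 5 of 38 carry the string and all 5 fell, as did 32 of the 33 others. The carriers among them had a lower median log2 difference (-1.11) than the others (-0.75). None of the homologous recombination, damage-signalling or mitosis genes carries it. Among genes described below, STAT3, CREB1, APAF1, HK1, ADAR and SRXN1 have 2 matches. NFKB1, HIF1A, CDK6, PRKDC, LIG4, MSH6, LMNB1, F11R, VCAN, IL1A, MCM2, CDC6, TIMELESS and TYMS are among those with 1.

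**Figure D2:**
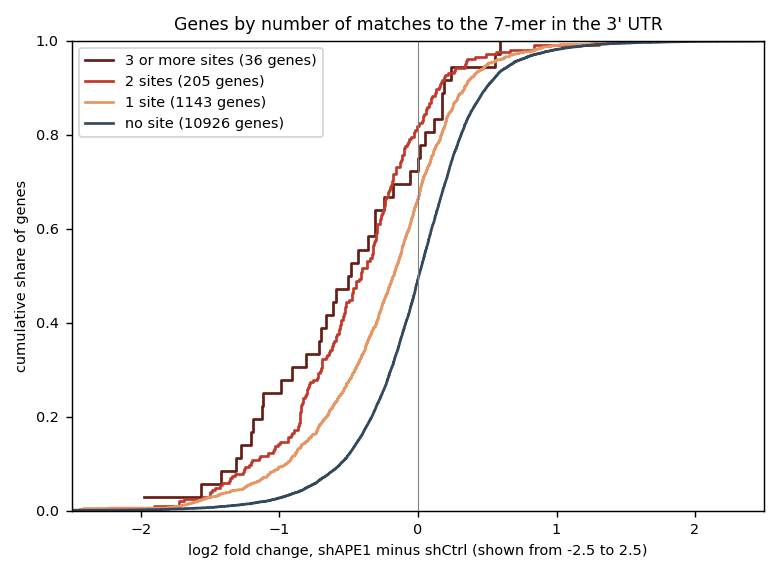
Cumulative share of genes by log2 difference between shAPE1 and shCtrl, for genes with 0, 1, 2 and 3 or more matches to the 7-base string in the 3′ UTR. The curves of genes with matches lie left of the curve without, with medians of -0.17, -0.41 and -0.49 against 0.01.

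Of 14 genes of the small RNA machinery 5 fell and 3 rose, against 18.8% and 17.8% of all tested genes. The string is carried by 4, of which 3 fell and 1 rose. TNRC6B, an effector of AGO-bound small RNAs, had 110.0, 108 and 108 CPM in shAPE1 libraries, against 193, 185 and 193 CPM in shCtrl libraries and 3 matches. AGO3 had 17.4, 12.6 and 13.8 CPM in shAPE1 and 25.1, 25.3 and 25.98 CPM in shCtrl. AGO2, the Argonaute that cuts its RNA targets, had 383, 384 and 375 CPM in shAPE1 libraries, against 497, 524 and 499 CPM in shCtrl libraries. AGO2 and AGO3 have 2 matches each. AGO2 fell (log2 -0.41 ± 0.07, adjusted p = 5.93e-06) but did not lie below rABS cells without a vector (log2 0.14). AGO4, with 1 match, rose, with 18.6, 18.9 and 17.6 CPM in shAPE1 and 14.8, 14.2 and 13.4 CPM in shCtrl (log2 0.38 ± 0.12, adjusted p = 0.0136). DICER1 and DROSHA, the nucleases that shape these RNAs, fell without a match (log2 -0.31 ± 0.09 and -0.18 ± 0.07).

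Some base excision repair transcripts other than APEX1 were lower, and most were not called. Of 24 members, all tested, 9 fell, APEX1 included, and 1 rose, against 18.8% and 17.8% of all tested genes. The other members that fell were 8 of 23, and 4 of the 11 glycosylases were among them. The median log2 difference of the 24 was -0.14. FEN1, the flap nuclease of the long-patch branch, had 45.5, 37.1 and 49.8 CPM in shAPE1 libraries, against 73.8, 73.1 and 70.4 CPM in shCtrl libraries. It fell 1.64-fold (log2 -0.72 ± 0.09, adjusted p = 5.27e-08). LIG1, the ligase of that branch and of replication, had 31.6, 30.4 and 31.6 CPM in shAPE1 libraries, against 44.2, 48.96 and 44.6 CPM in shCtrl libraries and fell 1.47-fold (adjusted p = 9.63e-05). LIG3, the ligase that works with XRCC1 and in mitochondria, was the one member that rose, and it carries the 7-base string, with 101, 113 and 105 CPM in shAPE1 libraries, against 90.8, 79.97 and 88.8 CPM in shCtrl libraries (log2 0.30 ± 0.07, adjusted p = 0.00146). The 2 ligases thus moved in opposite directions, although the LIG3 call ended when rABS cells without a vector were the control (log2 0.12). Among the glycosylases, UNG, which removes uracil, had 52.1, 46.97 and 47.4 CPM in shAPE1 libraries, against 71.4, 67.8 and 69.5 CPM in shCtrl libraries and fell 1.42-fold (adjusted p = 1.49e-06). NEIL3, which acts on oxidized bases in single-stranded DNA, had 3.77, 3.21 and 3.00 CPM in shAPE1 libraries, against 5.60, 5.18 and 4.78 CPM in shCtrl libraries and fell 1.55-fold (adjusted p = 0.00527). The thymine glycosylases MBD4 and TDG fell by less (log2 -0.41 ± 0.11 and -0.30 ± 0.11), as did the poly(ADP-ribose) polymerase PARP2 (log2 -0.41 ± 0.11) and the scaffold XRCC1 (log2 -0.28 ± 0.11). The calls of MBD4 and TDG were lost without shAPE1 library 2 (adjusted p = 0.0505 for MBD4 and 0.117 for TDG), TDG and XRCC1 also without shCtrl library 1 or 2, and XRCC1 with RLE scaling as well (adjusted p = 0.0546). OGG1, the glycosylase for 8-oxoguanine, had 9.84, 10.6 and 10.8 CPM in shAPE1 libraries, against 7.87, 9.38 and 8.21 CPM in shCtrl libraries. All 3 shAPE1 values lay above the shCtrl values, but the difference missed the threshold (log2 0.29 ± 0.13, adjusted p = 0.0918), and against rABS cells without a vector it had the opposite sign (log2 -0.56). POLB, the main gap-filling polymerase, had a log2 difference of -0.16 ± 0.14 and PARP1 of -0.12 ± 0.07, neither of which passed the test. Of the remaining members without a call, MUTYH, NTHL1, NEIL1, NEIL2, SMUG1, MPG, APTX, APLF and TDP1 lay between log2 -0.45 for APLF and 0.13 for NEIL1. With rABS cells without a vector as the control, 15 of the 24 fell.

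**Figure D3:**
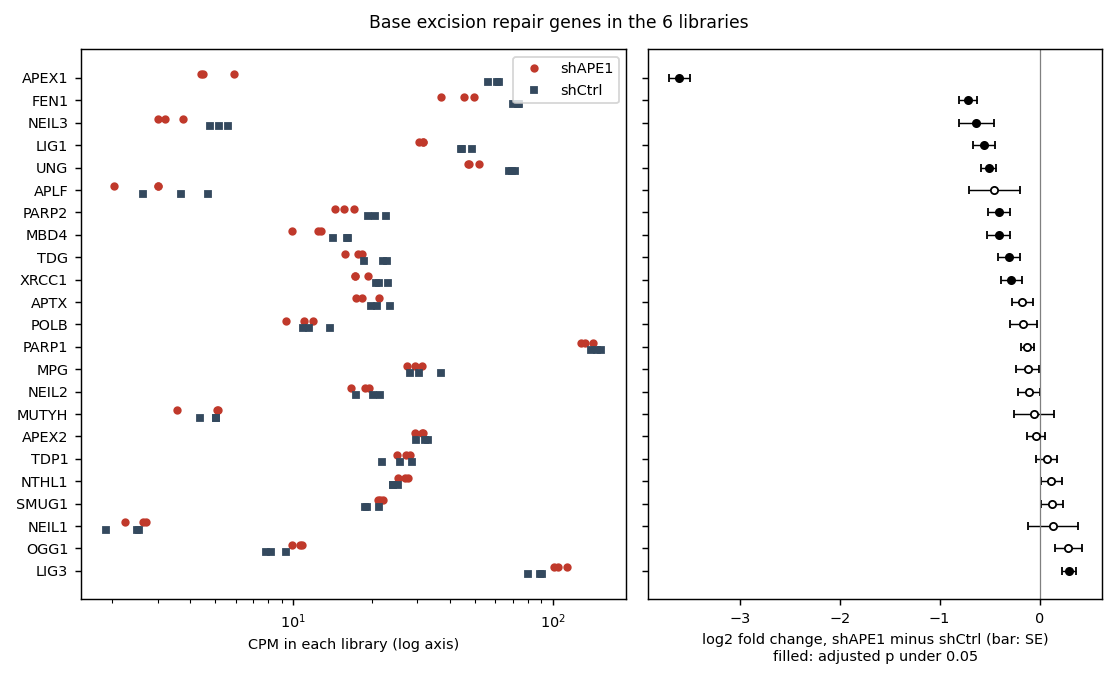
Base excision repair genes named in the text, in the 6 libraries. The left panel gives CPM per library on a log axis (shAPE1 circles, shCtrl squares), and the right panel the log2 difference with its standard error, filled where the adjusted p was under 0.05. APEX1 stands apart at log2 -3.61, and the other 8 members that fell lie between -0.72 and -0.28.

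Transcripts of the factors that APE1 is known to reduce were more often lower than higher, with JUN, JUND and RELA as exceptions. Of 13 listed, with the reductant gene TXN counted among them, 8 fell and 3 rose, against 18.8% and 17.8% of all tested genes. The median log2 difference of the 13 was -0.41. STAT3 had 91.6, 93.95 and 83.9 CPM in shAPE1 libraries, against 180.0, 173 and 185 CPM in shCtrl libraries, a 2-fold fall (log2 -0.997 ± 0.067, adjusted p = 1.62e-13). NFKB1, which encodes the p105/p50 subunit of NF-kB, had 42.1, 40 and 38.1 CPM in shAPE1 libraries, against 73.6, 76.5 and 69.5 CPM in shCtrl libraries. RELA, its transactivating partner, differed the other way, with 272, 308 and 266 CPM in shAPE1 libraries, against 213, 233 and 230.2 CPM in shCtrl libraries (log2 0.32 ± 0.07, adjusted p = 0.000327), but this call ended against rABS cells without a vector (log2 0.09). Within AP-1, FOSL1 had 287, 316 and 288 CPM in shAPE1 libraries, against 448, 498 and 461 CPM in shCtrl libraries, and JUND had 92.2, 108 and 94.1 CPM in shAPE1 libraries, against 38.4, 52.6 and 44.2 CPM in shCtrl libraries. FOSL1 fell 1.58-fold and JUND rose 2.17-fold, each with no overlap. JUN, with 34.4, 33.1 and 33.9 CPM in shAPE1 libraries, against 16.8, 16.8 and 17.2 CPM in shCtrl libraries, rose 2-fold but lay below rABS cells without a vector (log2 -0.95). FOS, EGR1, CREB1 and HIF1A also fell, with log2 differences of -0.65 ± 0.13, -0.44 ± 0.08, -0.56 ± 0.09 and -0.33 ± 0.07. STAT3, CREB1, NFKB1 and HIF1A carry the 7-base string, and 4 of the 9 members without it fell as well. JUNB and the reductant gene TXN did not pass the test (adjusted p = 0.956 for JUNB and 0.0654 for TXN).

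DNA replication genes fell nearly as a whole. Of 38 members, 37 fell and none rose, against 18.8% and 17.8% of all tested genes, and in all 38 the groups did not overlap, against 46.9% of all tested genes. The median log2 difference was -0.76, the lowest of the lists described. PCNA, the sliding clamp, had 138, 121 and 132 CPM in shAPE1 libraries, against 286, 284 and 292 CPM in shCtrl libraries, a 2.21-fold fall (log2 -1.14 ± 0.07, adjusted p = 4.14e-15). MCM2, a subunit of the replicative helicase, had 83.3, 86.4 and 86.5 CPM in shAPE1 libraries, against 186, 193 and 189 CPM in shCtrl libraries, also 2.21-fold lower (adjusted p = 3.55e-14). The other 5 subunits fell too, from log2 -0.51 for MCM3 to -0.85 for MCM7. The loader gene CDC6 had 53.5, 46.3 and 60.8 CPM in shAPE1 and 122, 108 and 117 CPM in shCtrl (2.16-fold). TIMELESS, of the fork protection complex, had 22.1, 21.5 and 20.7 CPM in shAPE1 and 51.3, 49.8 and 49.4 CPM in shCtrl, the largest fall of the list at 2.34-fold. The polymerase subunits moved less, with POLE at log2 -0.45, POLA1 at -0.41 and POLD1 at -0.35. POLD2 was the member without a call (log2 -0.09 ± 0.07), though its 3 shAPE1 values also lay below its shCtrl values. In these bulk libraries a smaller share of cells in S phase and less of these transcripts in each cell cannot be told apart. The shCtrl cells themselves lay below rABS cells without a vector, with a list median of log2 -0.50: PCNA averaged 130.3 ± 8.76 CPM in shAPE1 and 287 ± 4.197 CPM in shCtrl (SD, n = 3 each), 454 CPM in rABS and 80.5 CPM in Parental.

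Promoter sequences of PCNA and MCM2 are given because many genes of this list carry a match to the E2F motif there. E2F factors drive genes of the G1/S transition, and the motif was searched on both strands as TTT, then 2 bases each G or C, then CGC. Of 31 list members with a promoter of 300 bases in RefSeq (250 bases before the start of the gene and 50 from it on), 16 (51.6%) held a match, against 3.33% of all 27305 promoters. Among promoters of all tested genes the share was 5.25%. It was 8.24% among genes that fell, 3.69% among genes that rose and 4.7% among genes not called. Capitals mark the matches. In MCM2 the 2 matches overlap.
PCNA (chr20:5126573-5126872, minus strand): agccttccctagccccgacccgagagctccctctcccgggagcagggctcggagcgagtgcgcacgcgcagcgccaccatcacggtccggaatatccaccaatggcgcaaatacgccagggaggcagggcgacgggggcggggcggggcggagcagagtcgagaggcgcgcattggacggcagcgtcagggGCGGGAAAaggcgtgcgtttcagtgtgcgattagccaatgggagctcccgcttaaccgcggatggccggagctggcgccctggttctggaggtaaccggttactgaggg
MCM2 (chr3:127598161-127598460, plus strand): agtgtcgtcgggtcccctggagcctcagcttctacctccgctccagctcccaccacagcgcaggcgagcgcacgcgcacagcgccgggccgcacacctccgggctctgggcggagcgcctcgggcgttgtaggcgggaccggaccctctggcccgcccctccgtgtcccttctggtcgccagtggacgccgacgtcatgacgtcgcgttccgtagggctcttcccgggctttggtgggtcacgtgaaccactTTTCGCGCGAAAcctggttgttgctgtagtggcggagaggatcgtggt
Both sequences are 5′ to 3′ on the strand of the gene (RefSeq, GRCh38.p14). TIMELESS, which fell as strongly, held no match in this window.

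Genes that supply and package new DNA fell more often than they rose. Of 12 deoxynucleotide synthesis genes, 7 fell and 2 rose (median log2 -0.41), against 18.8% that fell and 17.8% that rose of all tested genes. TYMS, thymidylate synthase, had 12.5, 14.96 and 17.6 CPM in shAPE1 libraries, against 31.96, 31.6 and 30.5 CPM in shCtrl libraries and fell 2.1-fold (adjusted p = 9.58e-09). DUT, which keeps uracil out of DNA by hydrolysing dUTP, had 33.2, 28.5 and 35.2 CPM in shAPE1 and 69.7, 62.7 and 62.5 CPM in shCtrl (2.01-fold). DUT and the glycosylase UNG, which both keep uracil out of DNA, were thus lower together. TK1, thymidine kinase, fell as well (log2 -0.66 ± 0.08). The ribonucleotide reductase gene RRM1 fell (log2 -0.35 ± 0.07), while RRM2 did not pass the test (log2 -0.10 ± 0.07). SAMHD1, which degrades deoxynucleotides, rose, with 120.5, 118 and 120.0 CPM in shAPE1 libraries, against 81.1, 78.4 and 83.6 CPM in shCtrl libraries. Of 35 replication-dependent histone genes tested, 24 fell and none rose (median log2 -0.31), and without shAPE1 library 1 the count was 15. H1-5 averaged 302 ± 24.6 CPM in shAPE1 and 450.0 ± 50.2 CPM in shCtrl (SD, n = 3 each). The histone genes are close copies of each other and mostly lack a poly(A) tail, so after poly(A) selection their counts are uncertain.

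Genes for the repair of double-strand breaks through homology fell broadly. Of 29 members of homologous recombination and the Fanconi pathway, 23 fell and none rose (median log2 -0.53), against 18.8% of all genes that fell. BRCA1 had 35.96, 30.9 and 39.6 CPM in shAPE1 libraries, against 68.8, 63.1 and 62.3 CPM in shCtrl libraries, a 1.82-fold fall (log2 -0.87 ± 0.08, adjusted p = 5.13e-10). The BLM helicase gene had 16.1, 13.2 and 16.1 CPM in shAPE1 and 38.7, 29.3 and 33.4 CPM in shCtrl (2.23-fold). FANCI, part of the complex that is ubiquitinated at crosslinks, had 61.1, 57.2 and 65.5 CPM in shAPE1 and 114, 98.9 and 105 CPM in shCtrl (1.73-fold). FANCD2, its partner, fell 1.74-fold and the nuclease gene EXO1 1.79-fold. BRCA2 fell as well (log2 -0.68 ± 0.13). RAD50 and NBN, which act with MRE11 at the break, were among the 6 without a call (log2 0.06 ± 0.09 and 0.19 ± 0.10).

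End joining changed in fewer genes but held one of the largest differences in repair. Counts below are read against 18.8% of all tested genes that fell and 17.8% that rose. PRKDC, the kinase that broken DNA ends activate, had 215, 200.2 and 216 CPM in shAPE1 libraries, against 713, 628 and 686 CPM in shCtrl libraries. It fell 3.21-fold (log2 -1.68 ± 0.07, adjusted p = 2.77e-18). LIG4, the ligase of the same pathway, had 2.31, 1.91 and 2.25 CPM in shAPE1 and 5.65, 4.75 and 4.98 CPM in shCtrl (2.36-fold, adjusted p = 9.43e-06). Both carry the 7-base string. Of 17 end-joining genes 7 fell and 1 rose. None rose without shAPE1 library 2 or shCtrl library 1, and 2 rose without shCtrl library 2. RIF1 and SHLD2, which limit the cutting back of broken ends and do not carry the string, fell too (log2 -0.61 ± 0.08 and -0.70 ± 0.11). In mismatch repair 3 of 7 fell, among them MSH6 with 56.6, 55.9 and 60.8 CPM in shAPE1 and 108, 91.2 and 99.9 CPM in shCtrl and PMS1 (log2 -0.39 ± 0.12). Nucleotide excision repair was mixed, with 6 of 20 that fell and 2 that rose (median log2 -0.04), and without shAPE1 library 2 only 3 fell. Among its members ERCC2, a helicase subunit of TFIIH, rose (log2 0.41 ± 0.07), and XPC, the damage sensor, fell (log2 -0.35 ± 0.11), a call that was lost without shAPE1 library 2.

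Checkpoint and cell-division genes were also lower, read against 18.8% of all tested genes that fell and 17.8% that rose. Of 18 damage-signalling genes 11 fell and none rose (median log2 -0.36). CHEK1, the kinase that answers stalled replication forks, had 17.9, 16.03 and 17.6 CPM in shAPE1 libraries, against 29.2, 26.6 and 27.7 CPM in shCtrl libraries (1.62-fold, adjusted p = 6.13e-07), and CDC25A, the phosphatase it restrains, fell 1.83-fold. The apical kinases ATM and ATR did not pass the test (log2 -0.13 ± 0.11 and -0.09 ± 0.08). Of 32 mitosis genes 27 fell and 2 rose, with a median log2 of -0.43. PTTG1, which encodes securin, had 13.7, 18.3 and 15.1 CPM in shAPE1 libraries, against 43.1, 39.2 and 40.5 CPM in shCtrl libraries, the largest fall of that list at 2.61-fold (adjusted p = 1.47e-12). The proliferation marker MKI67 had 739, 691 and 776 CPM in shAPE1 libraries, against 1057, 1021 and 1009 CPM in shCtrl libraries, a smaller 1.4-fold fall, and TOP2A had 212, 179 and 224 CPM in shAPE1 and 356, 294 and 317 CPM in shCtrl. ESPL1, which encodes separase, and KIF20A rose slightly (log2 0.23 ± 0.08 and 0.24 ± 0.09). Against rABS cells without a vector ESPL1 had the opposite sign (log2 -0.27), and the calls of both genes were lost without shAPE1 library 3.

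Regulators of G1 fell more often than they rose, and the few that rose included inhibitors of the cyclin-dependent kinases. CDK6, a kinase that phosphorylates the RB protein, had 208, 194 and 202 CPM in shAPE1 libraries, against 566, 497 and 512 CPM in shCtrl libraries, a 2.61-fold fall (log2 -1.38 ± 0.08, adjusted p = 7.54e-15). Its cyclin partner CCND1 had 332, 340.2 and 332 CPM in shAPE1 and 499, 479.8 and 476 CPM in shCtrl, and CCND3 had 29.98, 33.4 and 30.3 CPM in shAPE1 and 47.2, 58.6 and 57.8 CPM in shCtrl. E2F1 had 29.8, 36.7 and 30.2 CPM in shAPE1 libraries, against 55.9, 61.7 and 60.9 CPM in shCtrl libraries and fell 1.85-fold, while the repressor E2F7 fell 2.22-fold. RB1, which encodes the RB protein, fell 1.74-fold and the inhibitor gene CDKN1C, which encodes p57, 2.72-fold. CDKN1B, the inhibitor p27, had 56.1, 46.1 and 47.3 CPM in shAPE1 libraries, against 28.7, 31.4 and 32.4 CPM in shCtrl libraries and rose 1.62-fold, and CDKN2B, the inhibitor p15, rose 1.5-fold. CDKN1A, which encodes p21, did not pass the test (log2 0.00 ± 0.08), though it lay below rABS cells without a vector (log2 -1.16). In all, 14 of 27 tested members fell and 3 rose, against 18.8% and 17.8% of all tested genes. With upper-quartile scaling 5 rose. PLK2 and TNFRSF10B, which cell stress can induce, moved in opposite directions. PLK2, a stress-induced kinase, had 73.4, 66.1 and 76.5 CPM in shAPE1 and 158, 145 and 150.1 CPM in shCtrl. TNFRSF10B, a death receptor, had 159, 179.9 and 158 CPM in shAPE1 and 103, 107 and 110.1 CPM in shCtrl.

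Interferon-stimulated genes moved in the other direction. Of 43 tested members of the type I interferon list, 27 rose and 2 fell, against 17.8% and 18.8% of all tested genes, and the median log2 difference was 0.63, the highest of the lists. IFIT3, a partner of the antiviral protein IFIT1, had 27.2, 23.6 and 26.6 CPM in shAPE1 libraries, against 11.4, 12.3 and 11.7 CPM in shCtrl libraries, a 2.18-fold rise (log2 1.13 ± 0.11, adjusted p = 6.21e-10). SAMD9L, an antiviral and growth-restraining protein, had 34.4, 30.7 and 33.6 CPM in shAPE1 libraries, against 15.5, 15.7 and 15.6 CPM in shCtrl libraries. OAS1, which makes the activator of RNase L, had 57.9, 55.6 and 57.1 CPM in shAPE1 libraries, against 33.3, 33.6 and 33.7 CPM in shCtrl libraries. In each the libraries of a group lay close together, and the groups were far apart. OAS2 rose 3.85-fold and IFIT2 2.12-fold. Genes at low levels moved in the same direction. IFIT1 had 9.49, 4.95 and 8.56 CPM in shAPE1 and 2.17, 2.97 and 2.69 CPM in shCtrl. RSAD2, which encodes viperin, had 3.67, 2.59 and 2.25 CPM in shAPE1 and 0.264, 0.849 and 0.348 CPM in shCtrl, the largest fitted difference of the list on few counts (log2 2.49 ± 0.43). IRF1, a transcription factor of this response, had 95.7, 114 and 89.8 CPM in shAPE1 and 56.1, 74.2 and 60.02 CPM in shCtrl (log2 0.65 ± 0.09). IRF7 rose against shCtrl (log2 0.62 ± 0.13) but lay below rABS cells without a vector (log2 -0.33). IFITM3, an antiviral membrane protein, was among the members that fell, with 33.8, 35.3 and 37.2 CPM in shAPE1 libraries, against 40.8, 58.1 and 49.2 CPM in shCtrl libraries (log2 -0.48 ± 0.11, adjusted p = 0.000991). STAT2, a signal transducer of the pathway, rose (log2 0.40 ± 0.08). The 6 listed leukocyte markers, CD14, LYZ, CSF1R, PTPRC and CD3E among them, together summed to 7.99 to 10.1 CPM in shAPE1 and 5.97 to 7.00 CPM in shCtrl, most of it CD14 and LYZ. These ranges did not overlap, and their part in the interferon values was not tested. PTPRC and CD3E, which define leukocytes and their T lineage, had at most 7 counts over the 3 libraries of a group.

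Promoters of IFIT3, which rose, and IFITM3, which fell, are given because both hold 2 matches to the core of the interferon response element, searched on both strands as GAAA, any 2 bases, then GAAA. Of 35 tested list members with a RefSeq promoter, 23 (65.7%) held a match, against 3.65% of all promoters. The share was 14 of 22 (63.6%) among members that rose. Over promoters of all tested genes it was 2.74%. Among all genes that rose it was 3.69%, among all that fell 2.35% and among genes not called 2.56%. Capitals mark the matches.
IFIT3 (chr10:89327747-89328046, plus strand): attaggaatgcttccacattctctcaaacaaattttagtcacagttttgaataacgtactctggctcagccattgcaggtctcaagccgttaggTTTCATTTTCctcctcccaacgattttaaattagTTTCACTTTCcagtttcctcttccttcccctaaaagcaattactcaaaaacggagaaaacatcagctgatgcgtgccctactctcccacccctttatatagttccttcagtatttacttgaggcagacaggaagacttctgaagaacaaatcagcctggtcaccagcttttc
IFITM3 (chr11:320811-321110, minus strand): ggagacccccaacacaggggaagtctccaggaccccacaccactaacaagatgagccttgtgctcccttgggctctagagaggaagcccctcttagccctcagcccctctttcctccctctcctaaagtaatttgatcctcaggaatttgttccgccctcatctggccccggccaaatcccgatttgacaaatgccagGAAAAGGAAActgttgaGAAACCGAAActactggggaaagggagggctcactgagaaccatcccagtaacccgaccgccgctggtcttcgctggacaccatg
OAS1 and SAMD9L, which rose, held no match in this window, and neither did any of the 31 replication promoters.

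Upstream sensors of nucleic acids did not follow a single direction, with 5 of 20 that rose and 6 that fell, against 17.8% and 18.8% of all tested genes. With rABS cells without a vector as the control 10 fell. CGAS, the sensor of cytosolic DNA, had 58.1, 51.4 and 58.1 CPM in shAPE1 libraries, against 94.7, 86.5 and 92.9 CPM in shCtrl libraries. It fell 1.63-fold (adjusted p = 3.21e-09). LMNB1, a nuclear lamina gene that is lost in senescent cells, had 45.5, 46.1 and 44.1 CPM in shAPE1 libraries, against 134, 128 and 126 CPM in shCtrl libraries. It fell 2.85-fold (adjusted p = 3.46e-17). MAVS, the adaptor of the RNA sensors, had 545, 581 and 543 CPM in shAPE1 and 379, 407 and 395 CPM in shCtrl, and IFI16 had 19.6, 15.6 and 17.1 CPM in shAPE1 and 11.2, 9.50 and 10.2 CPM in shCtrl. Both rose, while STING1, the adaptor for CGAS, did not pass the test (log2 0.10 ± 0.28). ADAR and 2 subunits of RNase H2, RNASEH2A and RNASEH2B, which prevent self nucleic acids from being sensed, fell (log2 -0.31 ± 0.06, -0.71 ± 0.11 and -0.81 ± 0.17).

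Antigen presentation genes rose modestly, 13 of 24 with none that fell (median log2 0.23), against 17.8% and 18.8% of all tested genes. CD74, the invariant chain of MHC class II, had 101, 131 and 105 CPM in shAPE1 libraries, against 56.3, 63.5 and 66.5 CPM in shCtrl libraries, a 1.81-fold rise (adjusted p = 3.82e-09). HLA-E had 316, 348 and 318 CPM in shAPE1 and 238, 261 and 262 CPM in shCtrl, and PSMB10, a subunit of the immunoproteasome, had 33.1, 34.1 and 36.1 CPM in shAPE1 and 23.4, 26.2 and 22.7 CPM in shCtrl. B2M, the light chain of MHC class I, did not pass the test (log2 -0.13 ± 0.07). Against rABS cells without a vector CALR and TAP2 took the opposite sign (log2 -0.17 and -0.08). Classical HLA genes share sequence, so reads could be split among them. The count of members that rose was 8 without shAPE1 library 2 and 8 without shCtrl library 1.

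CCL5 and most CXC chemokines rose, while interleukin-1 fell. Of 29 NF-kB and cytokine genes tested, 17 rose and 5 fell (median log2 0.29), against 17.8% and 18.8% of all tested genes. When rABS cells without a vector were the control, 10 rose. CXCL3 had 42.1, 40.5 and 47.3 CPM in shAPE1 libraries, against 16.1, 14.2 and 13.3 CPM in shCtrl libraries, a 2.97-fold rise (log2 1.57 ± 0.11, adjusted p = 1.12e-12). CXCL1 had 92.6, 99.6 and 115 CPM in shAPE1 libraries, against 57.4, 51.1 and 54.5 CPM in shCtrl libraries. CXCL2 had 32.7, 29.5 and 31.4 CPM in shAPE1 libraries, against 12.9, 16.5 and 17.2 CPM in shCtrl libraries. CXCL1 and CXCL2 nonetheless lay below rABS cells without a vector (log2 -0.24 and -0.65). CXCL5 rose on very few counts, with 0.804, 0.900 and 1.19 CPM in shAPE1 and 0.264, 0 and 0.0995 CPM in shCtrl. CXCL8, which encodes interleukin-8, fell (log2 -0.44 ± 0.11). IL1B had 5.27, 6.81 and 6.69 CPM in shAPE1 libraries, against 20.9, 23.97 and 20.1 CPM in shCtrl libraries. IL1A had 6.38, 5.79 and 8.13 CPM in shAPE1 libraries, against 25.8, 20.02 and 22.6 CPM in shCtrl libraries. These are falls of 3.48-fold and 3.38-fold, in opposite direction to the chemokines of the same list. The inhibitor gene NFKBIA rose by log2 0.36 ± 0.06, with the opposite sign against rABS cells without a vector (log2 -0.27).

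Surface ligands read by lymphocytes were divided as well. Of 21 tested, 9 rose and 5 fell, against 17.8% and 18.8% of all tested genes, and 3 fell without shAPE1 library 3. CD274, which encodes PD-L1, had 13.5, 10.7 and 13.3 CPM in shAPE1 libraries, against 28.4, 26.9 and 25.8 CPM in shCtrl libraries, a 2.16-fold fall (adjusted p = 1.99e-09). CD276, which encodes B7-H3, had 199, 239.7 and 211 CPM in shAPE1 and 136, 146 and 140.2 CPM in shCtrl and rose 1.54-fold. CEACAM1, an inhibitory adhesion molecule, had 23, 31.4 and 29.4 CPM in shAPE1 and 14.7, 15.2 and 13.2 CPM in shCtrl. NECTIN4, a ligand of the receptor TIGIT, had 71.4, 77.6 and 69.8 CPM in shAPE1 and 39.5, 45.8 and 41.3 CPM in shCtrl. Both were higher in every shAPE1 library. The NKG2D ligand genes were mixed, with ULBP1 at log2 -1.66 ± 0.55, MICB at -0.36 ± 0.09 and MICA at 0.35 ± 0.11. Against rABS cells without a vector the MICB call was lost (log2 -0.10) and ULBP1 had the opposite sign (log2 1.21).

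Genes that ERK and STAT3 induce were divided. DUSP6, a phosphatase that ERK induces and that acts on ERK, had 26.5, 28.7 and 26.3 CPM in shAPE1 libraries, against 80.3, 72.2 and 65.9 CPM in shCtrl libraries. ETV5, a transcription factor induced by the same pathway, had 35.5, 38.8 and 36.7 CPM in shAPE1 libraries, against 77.5, 83.7 and 82.2 CPM in shCtrl libraries. They fell 2.68-fold (adjusted p = 2.76e-14) and 2.19-fold (adjusted p = 1.44e-13). DUSP1 and DUSP5, phosphatases of the same family, rose (log2 1.04 ± 0.11 and 0.35 ± 0.07), and DUSP1 had the opposite sign against rABS cells without a vector (log2 -0.17). MYC moved up as well, with 1153, 1208 and 1150.4 CPM in shAPE1 libraries, against 717, 753 and 763 CPM in shCtrl libraries, a 1.57-fold rise (log2 0.65 ± 0.06, adjusted p = 2.87e-10). Over the 29 AP-1 and immediate early genes 9 rose and 11 fell, against 17.8% and 18.8% of all tested genes. In the STAT3 list 7 of 14 fell and 3 rose, read against the same shares. PIM1, a kinase that STAT3 induces, had 36.97, 38.5 and 33.1 CPM in shAPE1 libraries, against 71.4, 81.2 and 74.3 CPM in shCtrl libraries. SOCS3, its feedback inhibitor, had 27.2, 28.5 and 29.01 CPM in shAPE1 and 37.98, 43.5 and 43.4 CPM in shCtrl. Both were lower by more than the spread of either group. The receptor gene IL6R rose (log2 0.58 ± 0.11), with the opposite sign against rABS cells without a vector (log2 -0.12).

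Genes of the integrated stress response fell more often than they rose, with amino acid synthesis genes on both sides. Of 25 tested, 13 fell and 4 rose (median log2 -0.31), against 18.8% and 17.8% of all tested genes. ATF4, the transcription factor of the response, had 125, 132 and 129.6 CPM in shAPE1 libraries, against 198, 216 and 201 CPM in shCtrl libraries (log2 -0.67 ± 0.07, adjusted p = 7.35e-10), but did not lie below rABS cells without a vector (log2 0.06). PHGDH, the first enzyme of serine synthesis, had 4.52, 4.56 and 5.06 CPM in shAPE1 libraries, against 17.6, 16.7 and 16.6 CPM in shCtrl libraries. PSAT1, the second, had 40.1, 33.2 and 38.1 CPM in shAPE1 libraries, against 89.9, 76.1 and 78.4 CPM in shCtrl libraries. PHGDH fell 3.61-fold and PSAT1 2.19-fold, and MTHFD2, which uses serine carbon in mitochondria, fell 1.99-fold. ASNS, asparagine synthetase, had 36.6, 38.7 and 38.6 CPM in shAPE1 libraries, against 89.01, 78.7 and 85.8 CPM in shCtrl libraries (2.23-fold), but lay above rABS cells without a vector (log2 0.80). PSPH, the third enzyme of serine synthesis, and SHMT2, which passes serine carbon to folate, did not pass the test (log2 0.02 ± 0.10 and 0.04 ± 0.06). CTH, which makes cysteine, rose 1.43-fold, with 19.7, 16.9 and 18.9 CPM in shAPE1 and 14.5, 10.99 and 13.5 CPM in shCtrl. NUPR1 rose against the list, on low values of 1.46, 1.29 and 1.00 CPM in shAPE1 and 0.211, 0.0848 and 0.249 CPM in shCtrl.

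Genes of the NRF2 and antioxidant list moved both ways, and 14 of 36 tested rose and 5 fell, against 17.8% and 18.8% of all tested genes. With rABS cells without a vector as the control 9 fell. FTH1, the heavy chain of ferritin, had 2929.9, 3418 and 2818 CPM in shAPE1 libraries, against 1278, 1317 and 1422 CPM in shCtrl libraries, a 2.28-fold rise (log2 1.19 ± 0.08, adjusted p = 5.32e-14). FTH1 has many processed copies in the genome, so its reads may be split. HMOX1, heme oxygenase, had 10.9, 13.2 and 11.6 CPM in shAPE1 libraries, against 6.08, 4.54 and 4.18 CPM in shCtrl libraries and rose 2.42-fold (adjusted p = 1.07e-07). GCLM, the modifier subunit of the enzyme that starts glutathione synthesis, had 16.02, 17.4 and 20.6 CPM in shAPE1 libraries, against 31.8, 34.9 and 34.3 CPM in shCtrl libraries. SRXN1, sulfiredoxin, had 11.1, 14.2 and 14.2 CPM in shAPE1 libraries, against 25.99, 31.7 and 25.6 CPM in shCtrl libraries. Both carry the 7-base string and they fell 1.88-fold and 2.12-fold, and the cystine transporter gene SLC7A11, without the string, fell 1.69-fold. GCLC, the catalytic partner of GCLM, and TXNRD1, thioredoxin reductase, fell too (log2 -0.28 ± 0.07 and -0.43 ± 0.06). NQO1, a common readout of NRF2, did not pass the test (log2 0.01 ± 0.07), and neither did NFE2L2, which encodes NRF2 (log2 0.07 ± 0.07).

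Protein quality control genes differed by list, read against 17.8% of all tested genes that rose and 18.8% that fell. Of 21 unfolded protein response genes 5 rose and 4 fell, and 2 rose and 11 fell with rABS cells without a vector as the control. EDEM1, which sends misfolded glycoproteins to degradation, had 45.5, 41.8 and 40.1 CPM in shAPE1 libraries, against 128, 119 and 130.1 CPM in shCtrl libraries and fell 2.96-fold (adjusted p = 4.67e-17). CRELD2, another gene of that list, fell (log2 -0.98 ± 0.14), while the chaperone gene HSPA5 rose (log2 0.27 ± 0.06) but lay below rABS cells without a vector (log2 -0.87). Of 18 heat shock genes 7 fell and 2 rose, and 4 fell without shAPE1 library 2 or without shCtrl library 1. Leaving out shAPE1 library 1 or 2 or shCtrl library 1 or 2 left 1 that rose. HSPB1, a small heat shock protein, rose with 1686, 1856 and 1600.3 CPM in shAPE1 and 877, 1096 and 1036 CPM in shCtrl. Proteasome subunits fell in 11 of 30, by small amounts (PSMD1, the largest, log2 -0.39 ± 0.07). That count was 6 with upper-quartile scaling, 4 without shAPE1 library 2, 5 without shCtrl library 1, 6 without shCtrl library 3 and 23 with rABS cells without a vector as the control. Of 29 lysosome and autophagy genes 13 rose and 3 fell, with ATG9A at 166, 195 and 160.2 CPM in shAPE1 and 109.7, 112 and 114 CPM in shCtrl and MAP1LC3B, in the other direction, at 45.6, 45.6 and 47.8 CPM in shAPE1 and 78.3, 74.7 and 71.4 CPM in shCtrl.

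Ribosome and respiration genes did not move as blocks. Of 29 genes of MYC and ribosome biogenesis 9 rose and 5 fell, against 17.8% and 18.8% of all tested genes. Without shAPE1 library 2 or without shCtrl library 1, 3 fell, and with rABS cells without a vector as the control 3 rose and 18 fell. MAX, the partner of MYC, rose 1.53-fold, and MXD1, which competes with MYC for MAX, had 21.6, 24.1 and 19.3 CPM in shAPE1 and 40.4, 37.8 and 38.6 CPM in shCtrl and fell 1.79-fold. Of 36 cytosolic ribosomal protein genes 7 rose, close to the share of all genes, and none fell. RPS2 had the smallest adjusted p among them (log2 0.36 ± 0.06, adjusted p = 2.7e-05). Without shCtrl library 1, 3 rose, and without shAPE1 library 1 or shCtrl library 3, 4 rose. These genes have many processed copies in the genome, so their reads may be split. SRM, spermidine synthase, and BOP1, a ribosome assembly factor, rose (log2 0.53 ± 0.08 and 0.49 ± 0.07) but lay below rABS cells without a vector (log2 -0.18 and -0.18). Nuclear respiratory chain genes were mixed, 6 up and 4 down of 34, at or under the shares of all genes, with 3 up without shAPE1 library 3 and 2 down without shCtrl library 3. All 13 genes of the mitochondrial genome had a positive difference (median log2 0.38), of which 3 passed the test, MT-ND2, MT-ND3 and MT-CO1, and 11 in the fit of the 6 libraries alone. MT-ND2 and MT-ND3 had the opposite sign against rABS cells without a vector (log2 -0.06 and -0.64).

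Glycolysis, lipid and bile acid genes did not move as blocks. Of 32 glycolysis and hypoxia genes 10 rose and 8 fell, against 17.8% and 18.8% of all tested genes, and 2 rose and 23 fell with rABS cells without a vector as the control. HK1, a hexokinase, had 76.4, 78.2 and 72.3 CPM in shAPE1 libraries, against 139, 143 and 144 CPM in shCtrl libraries and fell 1.88-fold (adjusted p = 1.47e-12), while EGLN1, an oxygen-sensing prolyl hydroxylase, had 107, 129.6 and 123 CPM in shAPE1 and 79.8, 74.9 and 77.7 CPM in shCtrl and rose. BNIP3L, a mitophagy receptor, fell 2.35-fold. Of 28 cholesterol genes 10 rose and 6 fell, and 20 rose and 2 fell with rABS cells without a vector as the control. Without shAPE1 library 2, 3 cholesterol genes fell. ABCA1, the cholesterol exporter, had 28.6, 32.3 and 25.2 CPM in shAPE1 libraries, against 14.1, 13.6 and 12.9 CPM in shCtrl libraries and rose 2.12-fold (adjusted p = 7.35e-10). SREBF2, the transcription factor of cholesterol synthesis, had 566, 659.7 and 568 CPM in shAPE1 and 375, 398 and 390.1 CPM in shCtrl. Among 15 bile acid handling genes 3 rose, close to the share of all genes, and none fell. CYP3A5, a bile acid hydroxylase, had 93.7, 86.4 and 94.96 CPM in shAPE1 libraries, against 49.3, 51.1 and 58.5 CPM in shCtrl libraries. ABCC2, an exporter of conjugates, rose 2.47-fold.

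WNT and YAP target genes were lower in part, read against 18.8% of all tested genes that fell and 17.8% that rose. Of 16 WNT and stem cell genes 9 fell and 2 rose (median log2 -0.41), and 1 rose without shAPE1 library 2 or shCtrl library 1 or 3. TCF7, a WNT transcription factor, had 19.9, 21.6 and 21.4 CPM in shAPE1 libraries, against 45.6, 52.7 and 49.02 CPM in shCtrl libraries. SOX9, a progenitor factor, had 137, 146 and 144 CPM in shAPE1 libraries, against 243, 254 and 227 CPM in shCtrl libraries. They fell 2.35-fold (adjusted p = 1.16e-12) and 1.7-fold (adjusted p = 2.43e-10). LGR4, an R-spondin receptor, rose with 107, 107 and 96.3 CPM in shAPE1 and 66.5, 59.2 and 64.3 CPM in shCtrl. Of 17 YAP targets 9 fell and 3 rose, and 9 rose and 4 fell with rABS cells without a vector as the control. F3, which encodes tissue factor, had 314, 339.7 and 331 CPM in shAPE1 libraries, against 738, 684 and 694 CPM in shCtrl libraries and fell 2.15-fold, whereas CCN1, a classical YAP target, rose by log2 0.31 ± 0.07 and CCN2, another, fell (log2 -0.96 ± 0.24). Mesenchymal genes were split, 4 up and 4 down of 14 tested. FN1, fibronectin, had 2590.3, 3037 and 2542 CPM in shAPE1 libraries, against 1571, 1530.0 and 1528 CPM in shCtrl libraries and rose 1.76-fold (adjusted p = 1.73e-11). VCAN, the proteoglycan versican, had 61.2, 56.9 and 60.6 CPM in shAPE1 libraries, against 169, 153 and 161 CPM in shCtrl libraries and fell 2.7-fold (adjusted p = 3.54e-16).

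Epithelial and lineage genes shifted member by member, read against 17.8% of all tested genes that rose and 18.8% that fell. In each list here the share that fell was under that of all genes, and the share that rose was above it. Of 24 junction genes 8 rose and 4 fell. JUP, which encodes plakoglobin, had 15274, 17824 and 15183 CPM in shAPE1 libraries, against 9283, 10190.1 and 9845 CPM in shCtrl libraries. CLDN4, a tight junction gene, had 1161, 1305 and 1131 CPM in shAPE1 and 796, 886 and 879.5 CPM in shCtrl. Both were higher in every shAPE1 library. F11R, which encodes the tight junction protein JAM-A, had 38.1, 38.9 and 42.1 CPM in shAPE1 libraries, against 113, 108 and 113 CPM in shCtrl libraries and fell 2.81-fold (adjusted p = 1.45e-16). The simple keratin genes KRT8 and KRT18 fell as well (log2 -0.34 ± 0.07 and -0.40 ± 0.07). Of 17 squamous genes 5 rose and 3 fell. SPRR3, a cornified-envelope gene, had 17.6, 20.2 and 19.8 CPM in shAPE1 libraries, against 8.08, 7.68 and 6.67 CPM in shCtrl libraries. KLK5, a skin protease, had 12.3, 12.9 and 11.4 CPM in shAPE1 libraries, against 29.2, 31.9 and 34.5 CPM in shCtrl libraries. SPRR3 was higher and KLK5 lower in every shAPE1 library. Among 16 gastric and intestinal markers 5 rose and 2 fell, and 1 fell without shAPE1 library 1 or 3 or shCtrl library 2 or 3. The gastric mucin gene MUC5AC had 35.7, 32.4 and 32.01 CPM in shAPE1 libraries, against 86.05, 105 and 111 CPM in shCtrl libraries, a 3.02-fold fall (adjusted p = 6.77e-15). The intestinal factor gene CDX2 had 34.1, 35.4 and 29.9 CPM in shAPE1 and 25.4, 23.9 and 23.3 CPM in shCtrl and was higher in every shAPE1 library.

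Receptor kinases and apoptosis genes were divided, read against 17.8% of all tested genes that rose and 18.8% that fell. Of 28 receptor kinase genes 7 rose and 7 fell, the falls being the larger, and without shAPE1 library 2 or shCtrl library 1 only 3 rose, and without shCtrl library 3 only 4. EPHB6, a receptor that lacks kinase activity, had 2.21, 1.35 and 1.81 CPM in shAPE1 libraries, against 9.72, 9.67 and 10.1 CPM in shCtrl libraries. EFNA5, a ligand of Eph receptors, had 16.3, 19.5 and 19.4 CPM in shAPE1 and 47.4, 43.9 and 45.9 CPM in shCtrl. EGFR fell too (log2 -0.53 ± 0.06), as did GAS6, the ligand of AXL (log2 -0.91 ± 0.17). DDR1, a collagen receptor, had 838, 979.9 and 828 CPM in shAPE1 libraries, against 557, 615 and 580.3 CPM in shCtrl libraries. ERBB3, a partner of the HER2 receptor, had 183, 197 and 169 CPM in shAPE1 and 129, 139 and 140.5 CPM in shCtrl. Both were higher in every shAPE1 library. Of 28 apoptosis genes 10 rose and 6 fell. BMF, a pro-apoptotic BH3-only gene, had 27.3, 26.9 and 21.8 CPM in shAPE1 libraries, against 9.46, 10.8 and 11.9 CPM in shCtrl libraries and rose 2.36-fold (adjusted p = 2.25e-10). BAK1, a pore-forming effector, had 64.3, 79.4 and 63.6 CPM in shAPE1 and 43.2, 43.5 and 45.1 CPM in shCtrl. APAF1, the core of the apoptosome, had 16.5, 13.9 and 18 CPM in shAPE1 libraries, against 46.5, 42.7 and 46.6 CPM in shCtrl libraries and fell 2.81-fold (adjusted p = 1.16e-13). BCL2L1, which encodes the survival protein BCL-XL, fell (log2 -0.47 ± 0.06), a call that was lost against rABS cells without a vector (log2 -0.12). BCL2 fell 2.31-fold on low levels.

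**Figure D4:**
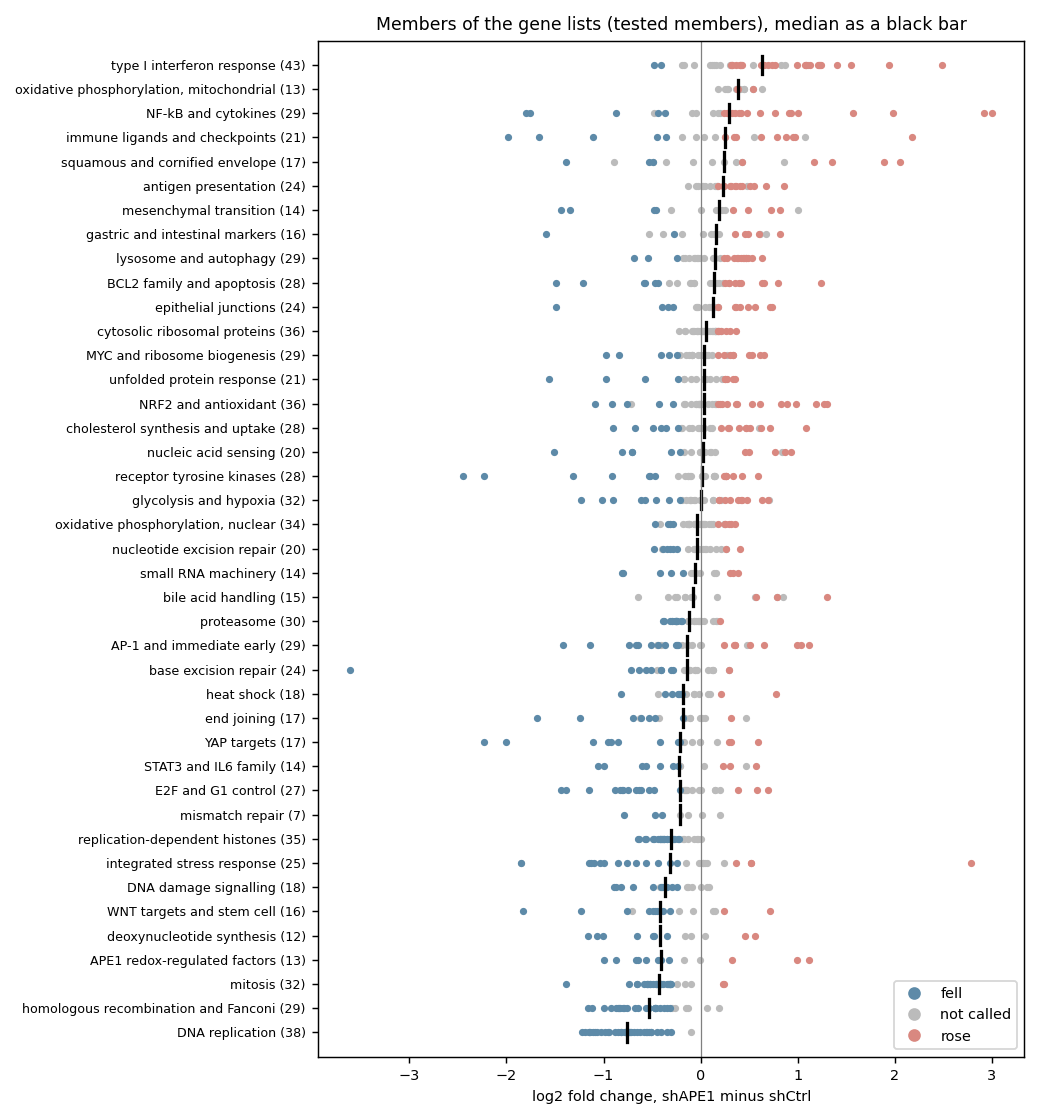
Log2 difference between shAPE1 and shCtrl of every tested member of 41 gene lists, ordered by median (black bar), with the number of tested members in brackets. DNA replication lies lowest with a median of -0.76 and the type I interferon response highest with 0.63, and most lists have called members on both sides of 0.

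Differences between shAPE1 and shCtrl were set beside those between rABS and Parental cells, a comparison that shares no library with it. Between rABS and Parental, 4729 genes (29.9%) rose and 4725 (29.9%) fell. Of the 2976 genes that fell in shAPE1, 1336 (44.9%) had risen in rABS cells and 856 (28.8%) had fallen there. Of the 2808 that rose in shAPE1, 1251 (44.6%) had fallen in rABS cells and 802 (28.6%) had risen. As shares of the exposure calls, 28.3% of the genes that rose with exposure fell in shAPE1 and 17% rose, while 26.5% of those that fell with exposure rose in shAPE1 and 18.1% fell. Over the 4245 genes called in both, 2587 (60.9%) differed in opposite directions. The gene groups were unlike in this. Of the 37 replication genes that fell, 35 had risen with exposure, and so had all 23 homologous recombination genes that fell. These 2 lists had risen with exposure nearly as a whole, in 36 of 38 replication and 26 of 29 homologous recombination genes. MCM2 averaged 85.4 ± 1.81 CPM in shAPE1 and 189 ± 3.69 CPM in shCtrl, 331 CPM in rABS and 41.7 CPM in Parental. Of the 25 integrated stress response genes tested, 23 had fallen with exposure, and none of the 13 that fell in shAPE1 had risen with it. PHGDH averaged 4.71 ± 0.304 CPM in shAPE1 and 16.98 ± 0.575 CPM in shCtrl, 9.04 CPM in rABS and 105 CPM in Parental. Of the 27 interferon genes that rose, 8 had fallen with exposure, against 29.9% of all tested genes. Over all 43 tested interferon genes 16 had risen with exposure and 10 had fallen. Of the 14 NRF2 list genes that rose, 10 had fallen with exposure, FTH1 among them (log2 -1.06 in rABS over Parental). The whole NRF2 list had a like share, with 25 of 36 tested genes that had fallen with exposure. APEX1 itself had risen with exposure (log2 0.58).

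**Figure D5:**
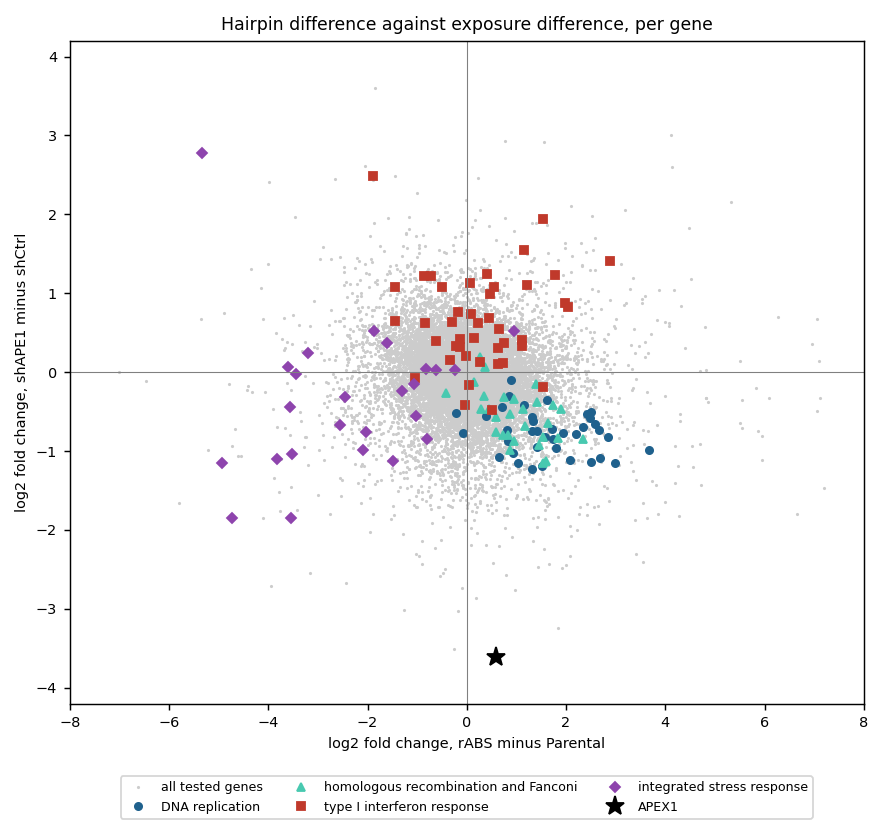
Each tested gene by its log2 difference between rABS and Parental (x axis) and between shAPE1 and shCtrl (y axis), with 4 genes outside the axes not shown. Replication and homologous recombination genes lie mostly at the lower right, interferon genes mostly above 0 on the y axis, and integrated stress response genes mostly at the left and below 0.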

How the data were processed

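Gene counts of 12 libraries (poly(A)-selected RNA of OE33 cells, 3 libraries in each of 4 groups) were used as the authors deposited them, as whole-number counts per gene. Per the submitters' processing notes, reads were trimmed with Trimmomatic 0.36, aligned with STAR 2.5.2b to GRCh38 and counted with featureCounts (Subread 1.5.2). The use of strand and of multi-mapping reads is not given in the sources used here. Genes with near-identical copies or antisense partners are therefore uncertain. No row without a gene name was used, and 0 columns lacked a sample.

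Of 57500 genes listed, 35464 had a count and 15805 passed edgeR's filterByExpr (minimum count 10, minimum total 15, 4 groups). edgeR 4.0.16 (R 4.3.3) fitted all 12 libraries with TMM scaling, 1 term per group and robust quasi-likelihood dispersions, and p-values were Benjamini-Hochberg adjusted over all tested genes. A gene "rose" or "fell" in shAPE1 where the adjusted p was under 0.05. CPM values use TMM-scaled library totals. The standard error is the absolute log2 difference over the square root of F. P-values measure the spread between libraries, which may be partly technical. The fit was tested on simulated data with known changes. Alternatives were RLE and upper-quartile scaling, no filter, a stricter filter (1 CPM in 6 libraries), the 6 libraries alone, a replicate block, rABS cells as the control, a test against a 1.5-fold change (glmTreat), DESeq2 1.42.0 and each library left out.

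The comparison, the 41 gene lists, 4 marker lists, the 7-base string and the motifs were chosen with earlier results of these data known. The rule for named genes took APEX1, the 15 largest rises, the 15 largest falls, all base excision repair and redox genes, and per list up to 5 called members in the more frequent direction and 3 in the other by adjusted p. Chosen after their values were seen were ATF4, ATM, ATR, B2M, BRCA2, BCL2, CCN2, CDKN1A, CDKN1C, CXCL5, CXCL8, DUSP1, DUSP5, EGFR, GAS6, GCLC, IFIT1, IRF1, IRF7, ISG15, MCM3, MICA, MX1, NBN, NFE2L2, NFKBIA, NQO1, POLA1, POLD1, POLD2, POLE, PSPH, RAD50, RB1, RRM2, RSAD2, SHMT2, STAT2, STING1 and ULBP1. A few genes and 1 list are not reported here. 3′ UTRs came from GENCODE 29 (1 transcript a gene) and promoters and miRNAs from RefSeq.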

Additional observations from a re-analysis of the deposited data

How the results depend on the processing

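The counts of 2808 genes that rose and 2976 that fell kept within 1.5 times of themselves under RLE scaling (2990 and 2781), upper-quartile scaling (3215 and 2634), no filter (2498 and 2799), a stricter filter (2794 and 2960), the 6 libraries alone (3007 and 2824), DESeq2 (2955 and 2744) and rABS cells without a vector as the control (3758 and 4138). A test against a 1.5-fold change called 206 that rose and 483 that fell. It called 1 base excision repair gene that fell, 15 replication, 7 homologous recombination, 1 mitosis and 6 integrated stress response genes that fell, and 11 interferon, 1 antigen presentation and 7 NF-kB genes that rose. At 2-fold in both comparisons, 110 genes fell against the exposure change and 57 rose against it. With rABS cells without a vector as the control 15 base excision repair genes fell and 10 NF-kB genes rose, and of the calls against shCtrl 1860 that rose and 2162 that fell were shared with it and 252 took the opposite direction. Leaving out 1 library at a time gave 2305 to 2557 genes that rose and 2499 to 2752 that fell, and APEX1 log2 values of -3.74 to -3.53. By list it gave 7 to 9 base excision repair, 36 to 37 replication, 20 to 22 homologous recombination, 26 to 27 mitosis and 13 to 14 integrated stress response genes that fell, and 24 to 27 interferon, 8 to 12 antigen presentation and 15 to 18 NF-kB genes that rose.

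Same-numbered libraries deviated together only weakly (correlations 0.021, 0.067 and 0.015). The labels do not say whether the numbers pair the libraries, and so few libraries cannot decide it. A replicate block in a fit of the 6 libraries gave 3323 genes that rose and 3104 that fell, against 3007 and 2824 in that fit without a block.

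Against rABS cells without a vector, 45 of the 346 genes named besides APEX1 took the opposite sign from that against shCtrl. Changes of sign in genes called against neither control were not counted. Higher in shAPE1 on the log2 scale there were ANKRD1 0.81, GDF15 0.23, LCN2 0.074, ASNS 0.80, IDI1 0.51, DLC1 0.27, TGFB2 0.34, KRT15 0.42, GATA6 0.25, AGO2 0.14, ATF4 0.06 and ULBP1 1.21. Lower there were OGG1 -0.56, JUN -0.95, ERCC6 -0.024, ESPL1 -0.27, AEN -0.17, CALR -0.17, TAP2 -0.084, CXCL1 -0.24, CXCL2 -0.65, IL6R -0.12, PPP1R15A -0.18, HSPA5 -0.87, HERPUD1 -0.10, PSMB5 -0.26, PSAP -0.058, BOP1 -0.18, SRM -0.18, RRP12 -0.20, UQCRC1 -0.091, MT-ND2 -0.06, MT-ND3 -0.64, PFKFB3 -0.19, PGAM1 -0.28, EPHB2 -0.41, ITGA5 -0.024, SNAI1 -0.39, AGR2 -0.42, MST1R -0.57, UGT2B7 -0.029, CDKN1A -1.16, IRF7 -0.33, NFKBIA -0.27 and DUSP1 -0.17. The cause of these differences between the controls was not tested. A single hairpin in a single line was used, protein was not measured in these libraries, and 15767284 counts in the smallest library limited genes at low levels.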
